A study of Drosophila melanogaster with 32 samples.

Results

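The genes described here encode heat shock proteins and chaperones of Drosophila. A gene was taken when the name given for an edited site began with Hsp, Hsc, DnaJ, Droj, Tcp, T-cp or Cct, or was Gp93, Trap1 or Hop. This rule found 22 of the 5181 genes with a listed site, and 153 of the 33835 listed sites. The Cct prefix also takes in Cct1 and Cct2, whose current symbols are Pcyt1 and Pcyt2. They encode enzymes of phosphatidylcholine synthesis and not chaperones, so they are given apart and 20 members remain without them. Hsp22 and Hsp67Bb overlap and were listed with the same 4 sites, so the members held 21 separate sets of sites. Hsp67Bb, current symbol CG4456, was grouped with the small heat shock genes by its name only. Hop is the Hsp70/Hsp90 organizing protein, current symbol Stip1, and not the Janus kinase hop.

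Chaperones bind unfolded or partly folded proteins and keep them from aggregating. Hsp70 proteins work in cycles of ATP hydrolysis that J-domain proteins start, Hsp90 proteins act on clients such as kinases and receptors that Hop can pass on from Hsp70, and chaperonins enclose a client in a ring-shaped chamber. Small heat shock proteins hold unfolding proteins without ATP. Constitutive members (Hsc genes, Hsp83) are expressed in unstressed cells, and the Hsp22 to Hsp27 genes are strongly induced by heat and, in fly cells, by ecdysone.

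In TRIBE, an RNA-binding protein carries the catalytic domain of the deaminase ADAR to its transcripts, where adenosines are converted to inosines that are read as guanosines. E488Q is a change in that domain reported to raise its editing efficiency. Hrp48 is an hnRNP A/B-type RNA-binding protein and FMRP is the fly homolog of the fragile X protein, and both bind many messenger RNAs.

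Editing was measured in poly(A) RNA of S2 cells, an embryonic fly cell line with hemocyte-like features. The cells were transfected transiently, treated with copper sulfate to induce the construct and sorted by fluorescence, in every group alike. The groups were the RNA-binding protein Hrp48 joined to the wild-type catalytic domain of the deaminase ADAR (Hrp48 TRIBE, 2 libraries), the same protein with an E488Q catalytic domain (Hrp48 HyperTRIBE, 2), the E488Q domain without an RNA-binding protein (deaminase alone, 2), and FMRP joined to the E488Q domain (FMRP HyperTRIBE, 1). The series holds 32 samples, and the other 25 were not analysed here. The labels do not state whether replicates came from different cultures; p-values then measure the spread between libraries, which may be technical, and all groups rest on 1 cell line under transient overexpression of an editing enzyme.

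Each file lists sites at which adenosine was read as guanosine, with edited and total reads. The lowest values seen in the 52199 lines were 20 reads and 10% edited. Absence from a list can reflect low coverage or low editing as well as no editing, and absent sites were therefore treated as unknown. No library held a site with more than 149 reads, and in 1 the maximum was 108, so the reads at strongly expressed genes sit near a ceiling and are not expression levels. Of the hemocyte-like marker genes, 4 of 8 had a listed site (srp, vkg, Cg25C and eater), eater in Hrp48 HyperTRIBE replicate 2 only. Hml, Pxn, NimC1 and He had none in any library. Of the neuronal markers 1 of 4, brp, had a single site.

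More chaperone genes were marked with Hrp48 HyperTRIBE than with Hrp48 TRIBE. HyperTRIBE listed 122 member sites in 21 genes in replicate 1 and 109 sites in 22 genes in replicate 2. TRIBE listed 13 sites in 9 genes and 7 sites in 7 genes. Of all 5181 genes, 4036 and 4759 had a site with HyperTRIBE and 743 and 911 with TRIBE. A gene enters both numbers only through a listed site, and most sites are HyperTRIBE sites, so high coverage by HyperTRIBE is in part set by how the genes were found. FMRP HyperTRIBE listed 13 sites in 8 genes, and the deaminase alone listed 0 sites in replicate 1 and 2 sites in replicate 2. Every member line of every library was marked as exon, and no such share over all lines is given here. Of the 153 sites, 126 were listed with Hrp48 HyperTRIBE only and 4 with another construct but in no Hrp48 HyperTRIBE library. A Hrp48 HyperTRIBE library listed 13 of the 16 TRIBE, 13 of the 13 FMRP and 1 of the 2 deaminase-alone member sites. Over all sites these shares were 77.7%, 69.9% and 42.2%.

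The mean was 115.5 ± 9.19 sites (SD, n = 2) for HyperTRIBE and 10 ± 4.24 for TRIBE, an 11.6-fold difference that was larger than the spread between replicates (two-sided exact permutation test, p = 0.33, the smallest that 2 against 2 allows). Over all sites HyperTRIBE listed 19706 and 22803 and TRIBE 1252 and 1400, so a large rise was not particular to the members. Same-numbered Hrp48 libraries carry the same library set in the file headers, and within the 2 sets the member site fold was 9.38 and 15.6. Among genes the means were 21.5 ± 0.707 and 8 ± 1.41, a 2.69-fold difference (two-sided exact permutation test, p = 0.33, n = 2 against 2). Among sites of at least 50 reads the site fold was 27.9 and the gene fold 5.71. The median reads at member sites were 43 and 36 in the TRIBE libraries and 84 and 94 in the HyperTRIBE libraries. A minimum of 50 reads therefore removed a larger part of the TRIBE sites, leaving means of 3.5 sites with TRIBE and 97.5 with HyperTRIBE. The part of read number in these folds was not tested. Each HyperTRIBE library held more sites than either TRIBE library in 20 of the 22 genes; over all 5181 genes this was so in 67.1%. The remaining genes were Cct2 and Hsp27. Of the 20 members without Cct1 and Cct2, Hsp27 was thus the 1 exception.

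Member sites made up 0.619% of the sites of HyperTRIBE replicate 1 (Wilson 95% interval 0.519 to 0.739%) and 0.478% of replicate 2 (0.396 to 0.576%). They made up 1.04% (0.608 to 1.77%) and 0.5% (0.242 to 1.03%) of the TRIBE sites, 0.277% (0.162 to 0.473%) of the FMRP sites and 0.436% (0.120 to 1.57%) of the sites of deaminase-alone replicate 2. The intervals cover counting error only and treat sites as independent, which neighbouring sites of a gene are not. The FMRP interval lay below those of HyperTRIBE replicate 1 and TRIBE replicate 1, and the interval of HyperTRIBE replicate 2 lay below that of TRIBE replicate 1.

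**Figure D1:**
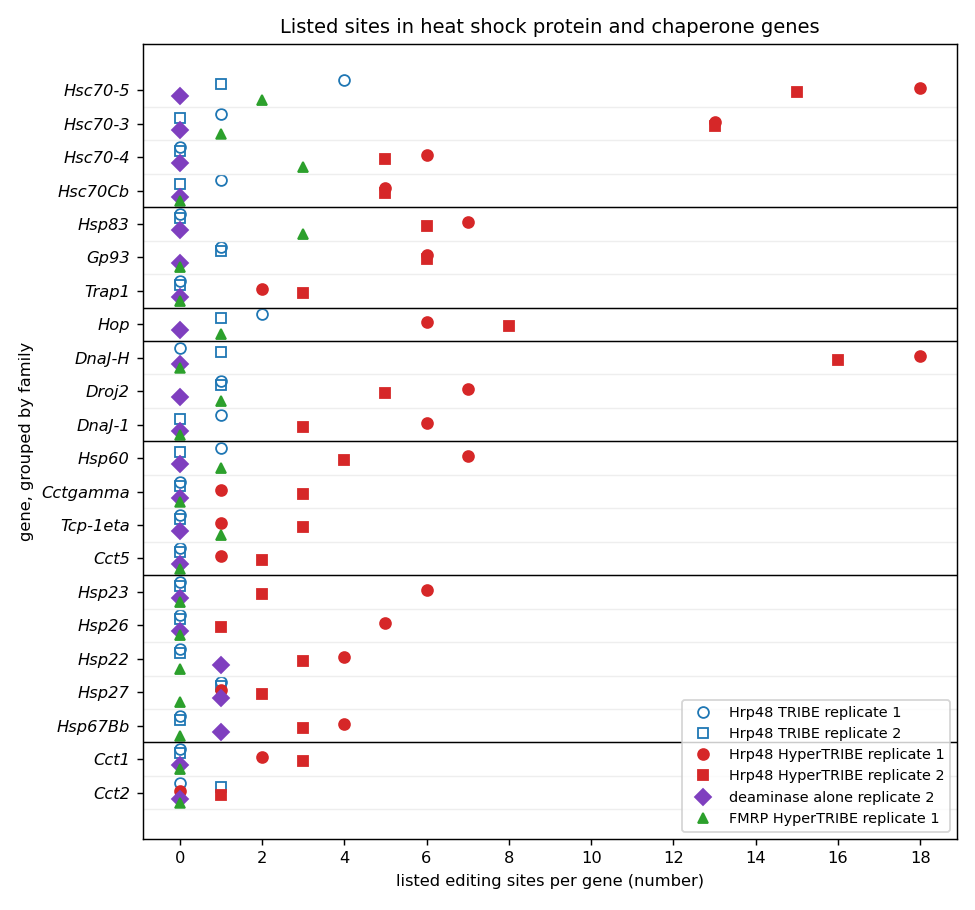
Number of listed sites (x axis) in each member gene (y axis, grouped by family with black lines between families), 1 point per library. Deaminase-alone replicate 1 listed no member site and is not drawn, points at 0 mean that no site was listed, and Hsp22 and Hsp67Bb show the same sites. Hsc70-5 and DnaJ-H reach 18 sites with Hrp48 HyperTRIBE, and the small heat shock genes have more sites in replicate 1 than in replicate 2 except Hsp27.

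The Hsp70 family held most sites, 42 and 38 in the HyperTRIBE libraries over 4 genes, of which 33 were listed in both (reproducible sites). Hsc70-5, the mitochondrial Hsp70 (2R, 10140186 to 10143435), held 18 and 15 HyperTRIBE sites, 4 and 1 TRIBE sites, 2 with FMRP and none with the deaminase alone. Its 13 reproducible sites were the most among the members and ranked 68th among all genes. Hsc70-3, the BiP chaperone of the endoplasmic reticulum (X, 11695872 to 11698087), held 13 sites in each HyperTRIBE library, 1 and 0 with TRIBE and 1 with FMRP. Hsc70-4, the main constitutive cytosolic Hsp70 (3R, 11068520 to 11071906), held 6 and 5 with HyperTRIBE, 0 and 0 with TRIBE, and 3 with FMRP. Hsc70Cb, an Hsp110 that exchanges the nucleotide of Hsp70 (3L, 14036456 to 14036534), held 5 and 5 with HyperTRIBE and 1 and 0 with TRIBE. All 5 of its sites lay within 78 bases and all 5 were reproducible.

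J-domain genes came next with 31 and 24 HyperTRIBE sites in 3 genes. DnaJ-H (2L, 13163249 to 13164893) held 18 and 16 with HyperTRIBE, of which 11 were reproducible, against 0 and 1 with TRIBE and none with FMRP. Droj2 (3R, 9209730 to 9210963) held 7 and 5 HyperTRIBE sites, 1 in each TRIBE library and 1 with FMRP. DnaJ-1, a heat-inducible Hsp40 (3L, 5743229 to 5743690), held 6 and 3 with HyperTRIBE and 1 and 0 with TRIBE. All 3 genes had more sites in HyperTRIBE replicate 1 than in replicate 2.

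In the Hsp90 family, Hsp83, the cytosolic Hsp90 (3L, 3193306 to 3196916), held 7 and 6 HyperTRIBE sites, 3 with FMRP and none with TRIBE. Gp93, the Hsp90 of the endoplasmic reticulum (3R, 23775214 to 23777723), held 6 sites in each HyperTRIBE library and 1 in each TRIBE library. Trap1, the mitochondrial Hsp90 (2R, 2521280 to 2522407), held 2 and 3 with HyperTRIBE alone. Hop (2L, 296229 to 297369) held 6 and 8 with HyperTRIBE, 2 and 1 with TRIBE and 1 with FMRP.

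Chaperonin genes held few sites. Hsp60, the mitochondrial chaperonin (X, 11002570 to 11006027), held 7 and 4 with HyperTRIBE, 1 and 0 with TRIBE and 1 with FMRP. The members that are subunits of the cytosolic chaperonin CCT, which folds actin and tubulin, were Tcp-1eta, Cctgamma and Cct5. Each of them had 1 site in HyperTRIBE replicate 1. In replicate 2, Tcp-1eta (3R, 4627630 to 4631592) and Cctgamma (3R, 12473387 to 12474478) had 3 sites and Cct5 (2R, 8064652 to 8064831) had 2. Each had 1 reproducible site, none had a TRIBE site, and Tcp-1eta had 1 site with FMRP. At the sites that were listed, the median read number in HyperTRIBE replicate 2 was 102 reads in Tcp-1eta, 103 in Cct5 and 60 in Cctgamma, against 37 over all sites of that library; reads at positions that were not listed are unknown.

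The small heat shock genes lie together on 3L and held 16 and 8 HyperTRIBE sites. Hsp22, with Hsp67Bb (9367212 to 9367814), held 4 and 3 sites, Hsp23 (9375312 to 9375699) 6 and 2, Hsp26 (9369724 to 9370191) 5 and 1, and Hsp27 (9377521 to 9378291) 1 and 2. FMRP HyperTRIBE listed none of them. Of the 2 genes of phosphatidylcholine synthesis, Cct1 held 2 and 3 HyperTRIBE sites and Cct2 held 0 and 1, and the single TRIBE site between them was in Cct2.

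Measured against all genes, 20 of the 22 members had a reproducible HyperTRIBE site, and 62.2% of all genes did. At least 5 such sites were found in 6 members, namely Hsc70-5, DnaJ-H, Hsc70-3, Hop, Hsc70Cb and Gp93, and in 15.5% of all genes. For 10 or more sites the numbers were 3 members and 3.74% of all genes. The median number of reproducible sites was 3.5 in the 20 members that had one and 2 in the 3220 genes that had one. Member sites had more reads than the library at large, with medians of 84 and 94 against 33 and 37 in the HyperTRIBE libraries. The part of read number in the site counts and in the sharing between replicates was not tested.

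Replicates shared more of the member sites than of all sites. Of the member sites of HyperTRIBE replicate 1, 82 of 122 were in replicate 2 (67.2%, Wilson 95% interval 58.5 to 74.9%), against 55.1% (54.4 to 55.8%) over all sites. In the other direction the shares were 75.2% (66.4 to 82.4%) and 47.6% (46.9 to 48.2%). The TRIBE libraries shared 4 member sites, in 4 genes (Hsc70-5, Gp93, Droj2 and Hsp27), and 4.92% of all genes had such a site. At the 82 sites median editing was 20.6% in replicate 1 and 17.4% in replicate 2, close to the 20% and 18.3% of all 10851 reproducible sites. The range was 10.3 to 87.3% in replicate 1 and 10.1 to 80% in replicate 2.

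With HyperTRIBE, many sites of a member gene lay close together. A neighbour needs a second listed site in the same gene, so the shares below depend on the number of sites per gene. TRIBE replicate 2 listed 7 member sites in 7 genes and could have no neighbours. TRIBE replicate 1 listed 13 in 9 genes and FMRP HyperTRIBE 13 in 8, which allows few. The spacing of member sites thus cannot be compared between constructs. With HyperTRIBE, 30.2% and 27.7% of the member lines had another site of their gene no more than 10 bases away, against 17.3% and 17.1% of all lines. Within 100 bases the shares were 70.6% and 57.1% against 56.0% and 55.2%. With TRIBE no member line had one within 10 bases (0 of 13 and 0 of 7, against 14.3% and 13.9% of all lines), and within 100 bases the shares were 15.4% and 0% against 32.5% and 26.5%. With FMRP HyperTRIBE none of the 13 member sites had a neighbour within 100 bases, and 23.7% of all its lines had one. Runs of 3 adjacent bases were listed in Hop (297296 to 297298), Hsc70-5 (10140485 to 10140487) and Hsc70Cb (14036456 to 14036458). HyperTRIBE replicate 2 listed all 3 bases of each run. HyperTRIBE replicate 1 did so only in Hsc70Cb and did not list Hop 297296 or Hsc70-5 10140486. In the Hsc70Cb run the third base carried most editing, 36.5% and 39.2% in the HyperTRIBE libraries. The first base was at 17.5% and 11.4% and the second at 15.9% and 14.1%, on 63 to 79 reads throughout. Neighbouring bases are read from the same fragments, so their values are not independent.

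The 3 genes with most sites were divided at their widest stretch without a listed site. In Hsc70-5, read from the minus strand, 18 of the 21 sites lay in the downstream 1801 bases, and a stretch of 1363 bases without a listed site separated them from the 3 upstream sites. In DnaJ-H, also on the minus strand, 14 sites lay in the downstream 503 bases and 9 upstream of a gap of 765 bases. In Hsc70-3 a gap of 999 bases set a single upstream site apart from 14 others. The same division, upstream then downstream, gave 4 and 5 sites in Hop and 3 and 3 in Hsp23. Most other divided members also had more sites downstream, such as Hsc70-4 and Hsp60 (1 and 6 each), Droj2 (2 and 6) and Hsp83 (3 and 6). More sites lay upstream in Hsc70Cb (3 and 2) and in Cct1, Cctgamma and Tcp-1eta (2 and 1 each). The division was not made over all genes, so a lean to the downstream side cannot be called particular to the members. The gaps are genomic distances that can include introns, and no exon borders of the dm3 build were used.

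**Figure D2:**
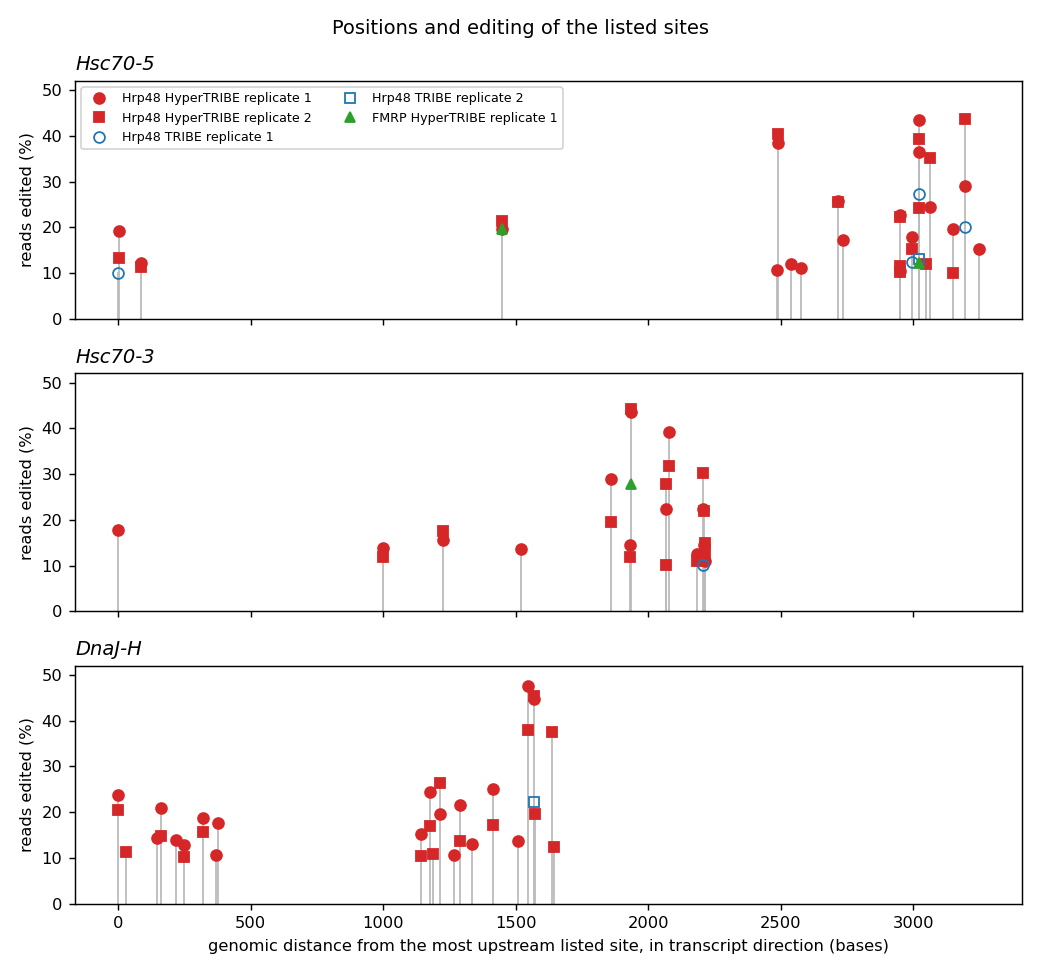
Percent of reads edited (y axis) at each listed site of Hsc70-5, Hsc70-3 and DnaJ-H against genomic distance in bases from the most upstream listed site, in transcript direction (x axis). Points are libraries, grey stems mark positions, and a library without a point at a position did not list that site. The highest values of all 3 genes lie in their downstream parts, which hold most of their listed sites, at 43.7% in Hsc70-5, 44.1% in Hsc70-3 and 47.5% in DnaJ-H.

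The comparison of editing levels between the Hrp48 constructs asked whether the E488Q domain edits the same chaperone sites more. Only 3 member sites were among the 298 listed in all 4 Hrp48 libraries, and 2 of them rose with HyperTRIBE (limma, Benjamini-Hochberg adjusted p under 0.05 over the 298 sites). Over all 298 sites 27.9% rose and none fell. These 83 sites became 1 without either HyperTRIBE library and 171 without TRIBE replicate 1, with 1 site lower, and without TRIBE replicate 2 they became 81, with 9 lower.

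At the Gp93 site (3R, 23777723) editing was 19.3% and 11.1% in the TRIBE libraries and 50% and 39.4% in the HyperTRIBE libraries. The means were 15.2% ± 5.79 (SD, n = 2) and 44.7% ± 7.48, so the log2 odds rose by 2.16 ± 0.58 (SE; limma, adjusted p = 0.00275). At the Hsc70-5 site (2R, 10140412) it was 27.3% and 13% in TRIBE and 43.5% and 39.4% in HyperTRIBE, and the log2 odds rose by 1.51 ± 0.58 (SE; limma, adjusted p = 0.0371). At the Droj2 site (3R, 9209730) it was 30.8% and 13.3% in TRIBE and 40% and 39.6% in HyperTRIBE, a log2 odds difference of 1.30 ± 0.58 that did not pass (SE; limma, adjusted p = 0.0772). The median difference over all 298 sites was 0.86 log2 odds, so all 3 estimates lie above it. At each of the 3 the HyperTRIBE values did not overlap the TRIBE values, as at 60.7% of the 298 sites. TRIBE replicate 2 was the lowest of the 4 Hrp48 libraries at each of the 3.

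These calls rest on few libraries. Without HyperTRIBE replicate 1 or replicate 2 no member site passed (limma adjusted p of 0.327 and 0.127 for Gp93, and 0.426 and 0.278 for Hsc70-5), without TRIBE replicate 2 only Gp93 passed (0.0176, and 0.106 for Hsc70-5), and without TRIBE replicate 1 all 3 did, Droj2 at 0.00236. Droj2 also passed among sites of at least 50 reads in every library (limma adjusted p = 0.0188). In the fit of 298 sites all received the same standard error, a spread pooled over sites, so a shift common to a whole library is not covered.

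Where a listing in 1 TRIBE library sufficed, 11 member sites could be fitted and 4 rose (limma adjusted p under 0.05 over 1395 sites, of which 15.4% rose and 0.0717% fell). These were the Hsp60 site (X, 11006024), the Hop site (2L, 297369), Gp93 and Hsc70Cb (3L, 14036458). All but Gp93 were listed in a single TRIBE library, so their p-values assume that this lone library varies like the other libraries, and they hold no TRIBE replicate check. Hsp60 was at 12.1% in TRIBE replicate 1 and at 53.5% and 43.6% in HyperTRIBE, a change of 2.70 log2 odds (limma adjusted p = 0.0297). Hop was at 37.1% in TRIBE replicate 2 and at 78.4% and 80% in HyperTRIBE, a change of 2.61 log2 odds (limma adjusted p = 0.0297), and was the most strongly edited member site by mean. Hsc70Cb was at 11.6% in TRIBE replicate 1 and at 36.5% and 39.2% in HyperTRIBE, a change of 2.1 log2 odds (limma adjusted p = 0.0360). In this fit Hsc70-5 at 10140412 did not pass (adjusted p = 0.0683).

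Among the other fitted sites, the Hop site at 296229 was at 10.9% in TRIBE replicate 1 and at 14% and 11% in HyperTRIBE (0.16 log2 odds, limma adjusted p = 0.853). Hsc70-5 at 10140439 was at 12.5% in TRIBE replicate 1 and at 17.9% and 15.4% in HyperTRIBE (0.39 log2 odds, limma adjusted p = 0.625). The 2 sites of Hop thus gave estimates of 0.16 and 2.61 log2 odds within 1 transcript, and the difference between them was not tested. A site near the 10% minimum in TRIBE enters only when its reads happened to pass, which holds TRIBE values up.

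**Figure D3:**
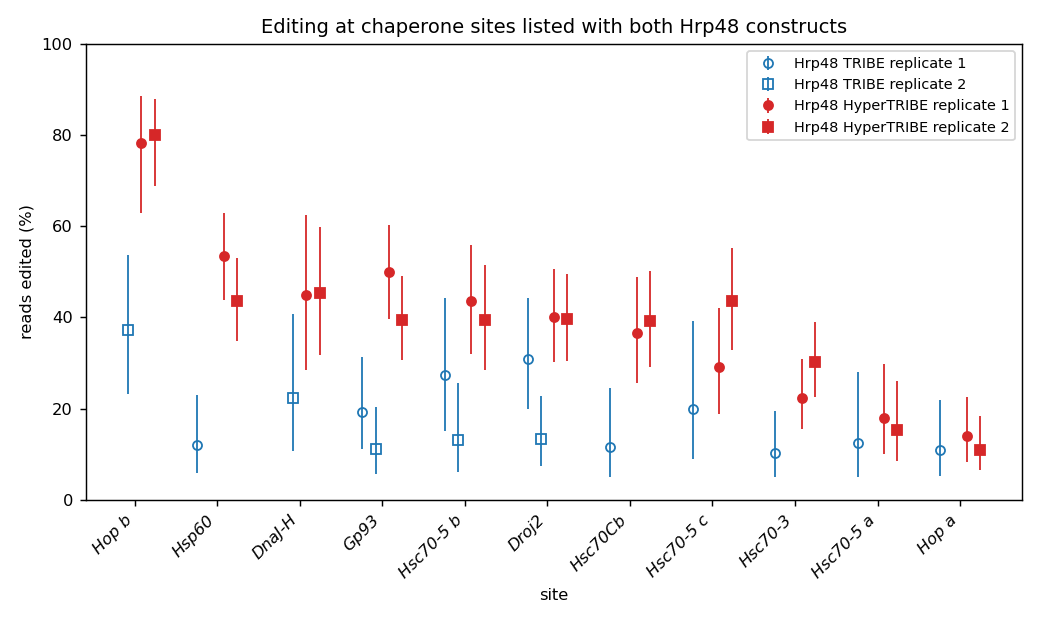
Percent of reads edited (y axis) at the 11 member sites listed in both Hrp48 HyperTRIBE libraries and at least 1 Hrp48 TRIBE library (x axis, letters number the sites of a gene in transcript direction). Points are libraries and bars are Wilson 95% intervals on the reads of that library. The HyperTRIBE points lie above the TRIBE points at all 11 sites, by least at Hop a, where TRIBE replicate 1 is at 10.9% and HyperTRIBE replicate 2 at 11%. Over all 1395 sites listed in this way, 1169 had a positive log2 odds difference. How many of those had no overlap was not counted, so the pattern cannot be called particular to the members.

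Hsp27, a small heat shock protein, had 1 and 2 sites with HyperTRIBE and 1 in each TRIBE library. Its site at 9377935 was at 14.3% and 11.1% in the TRIBE libraries, on 28 and 36 reads, and at 10.7% on 28 reads in HyperTRIBE replicate 2. HyperTRIBE replicate 1 did not list it. It was the only member site in both TRIBE libraries that was not in both HyperTRIBE libraries. Its values lie within 4 percentage points of each other and near the minimum.

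The deaminase alone gives the background without an RNA-binding protein, and it touched 3 of the 22 members, against 5.54% of all genes. These were Hsp22, Hsp67Bb through the same site, and Hsp27. The site of Hsp22 at 9367586 was at 20.3% on 79 reads in deaminase-alone replicate 2 (Wilson 95% interval 12.9 to 30.4%) and at 62.1% and 50.4% on 124 and 119 reads with Hrp48 HyperTRIBE. The Hsp27 site at 9377521 was at 18.2% on 22 reads (7.31 to 38.5%) and was listed in no other library. The Hsp22 site was 1 of the 82 reproducible HyperTRIBE sites, a share of 1.22% (0.216 to 6.59%), and over all reproducible sites the share was 1.34%. HyperTRIBE listed 115.5 times as many member sites as the deaminase alone, with a counting interval from 31.6 to 959 (231 sites against 2). The 231 count the 82 sites of both libraries 2 times. The interval treats sites as independent and does not measure the spread between libraries. Over all sites, deaminase-alone replicate 1 listed only 13 and replicate 2 listed 459, against 19706 and 22803 with HyperTRIBE. A large excess was thus not particular to the members. Without deaminase-alone replicate 1 the member fold was 57.8. The difference was larger than the spread between replicates (two-sided exact permutation test, p = 0.33, n = 2 against 2). Each deaminase-alone library carries a set number of its own in the file headers, so construct and library set cannot be told apart.

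Small heat shock genes differed between the 2 HyperTRIBE libraries. All 6 of their reproducible sites were edited more in replicate 1, by a median of 0.92 log2 odds, while over all 10851 reproducible sites 56.5% were higher in replicate 1, by a median of 0.10. Among the 76 other member sites 50 were higher in replicate 1, by a median of 0.25. The Hsp23 site at 9375699 was at 87.3% on 71 reads and 49.1% on 106, and Hsp22 at 9367814 at 42.3% on 111 and 24.6% on 114. The single reproducible Hsp26 site, at 9369864, was at 23.4% on 111 reads and 10.4% on 125. Replicate 1 listed 10 small heat shock sites that replicate 2 did not, 9 of them between 10.1 and 15.4% edited and 1, in Hsp27, at 39.1%. Replicate 2 listed 2 that replicate 1 did not, although it listed more sites in all, 22803 against 19706. Outside the small heat shock genes, 30 member sites were in replicate 1 only and 25 in replicate 2 only. More sites in replicate 1 than in replicate 2 were seen in 11 of the 22 members and in 31.7% of all genes. This is a description of 2 libraries with no test, and the sites of a gene share fragments.

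**Figure D4:**
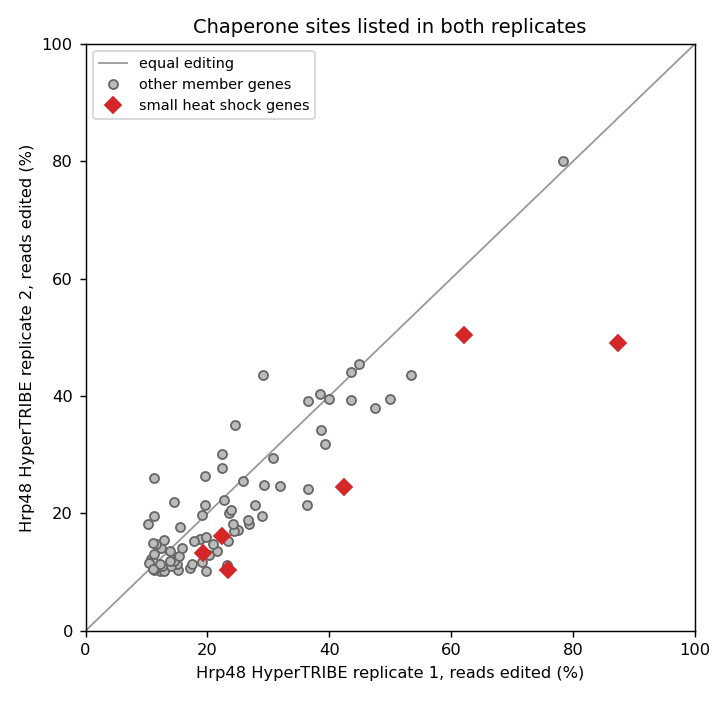
Percent of reads edited in Hrp48 HyperTRIBE replicate 1 (x axis) and replicate 2 (y axis) at the 82 member sites listed in both, 1 point per site. The grey line marks equal editing. The 6 small heat shock sites (red) all lie below it, farthest at Hsp23 with 87.3% and 49.1%.

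FMRP HyperTRIBE listed 13 member sites in 8 genes, Hsc70-4 and Hsp83 (3 sites each), Hsc70-5 (2), and Hsc70-3, Hsp60, Hop, Droj2 and Tcp-1eta (1 each). Over all genes 38.7% had an FMRP site. All 13 sites were also listed in both Hrp48 HyperTRIBE libraries (100%, Wilson 95% interval 77.2 to 100%), while of all 4694 FMRP sites 47.1% (45.6 to 48.5%) were. Of the reproducible Hrp48 HyperTRIBE member sites, 15.9% (9.51 to 25.3%) were in turn listed with FMRP, against 20.4% of all. The FMRP member sites had a median of 95 reads against 31 over its whole library.

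The order of the constructs differed between these genes. In Hsc70-4 the FMRP value of all 3 sites was above both Hrp48 values, but only at 11071352 did its interval exclude both. The site at 11071352 was at 48.4% with FMRP on 124 reads (Wilson 95% interval 39.8 to 57.1%) and at 36.3% and 21.4% with Hrp48. The site at 11070454 was at 33.6% against 29.4% and 24.8%, and the site at 11070662 at 14.5% against 11.3% and 10.4%. In Hsp83 the site at 3193334 was at 42.9% with FMRP (33.5 to 52.7%) and at 31.9% and 24.6% with Hrp48. The other 2 sites of Hsp83 were at 15.8% (against 23.3% and 15.3%) and 32.6% (against 38.6% and 34.2%).

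At other genes FMRP was mostly lower. Hsp60 at 11006024 was at 14% with FMRP on 93 reads (8.35 to 22.5%) and at 53.5% and 43.6% with Hrp48. Hop at 297369 was at 44.4% (30.9 to 58.8%) and at 78.4% and 80%. Hsc70-5 at 10140412 was at 12.3% (6.37 to 22.5%) and at 43.5% and 39.4%, whereas its site at 10141987 was at 19.8% with FMRP and at 19.6% and 21.4% with Hrp48. Droj2 was at 19.2% against 40% and 39.6% and Hsc70-3 at 11696153 at 27.8% against 43.6% and 44.1%, whereas Tcp-1eta at 4627714 was at 13.2%, between the Hrp48 values of 11.2% and 26.0%.

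Of the 13 sites, FMRP was below both Hrp48 libraries at 6, above both at 4 and between them at 3. Over all 2209 sites listed in the 3 libraries it was below both at 60.5% and above both at 19.8%. All 4 member sites that a Hrp48 TRIBE library also listed (Hsp60, Hop, Hsc70-5 at 10140412 and Droj2) were among the 6 below. Of the 9 that no TRIBE library listed, 2 were below, 4 above and 3 between. Over all sites the shares below both were 74.8% of 469 TRIBE-listed sites and 56.7% of 1740 others. The split by TRIBE listing is itself made on Hrp48 editing, so lower FMRP values at the listed sites are in part set by how the sites were picked. The series has a second FMRP HyperTRIBE sample, which was not analysed here. The FMRP library used shares its library set with no other, so the difference between the proteins has no replicate check and cannot be told apart from the set.

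**Figure D5:**
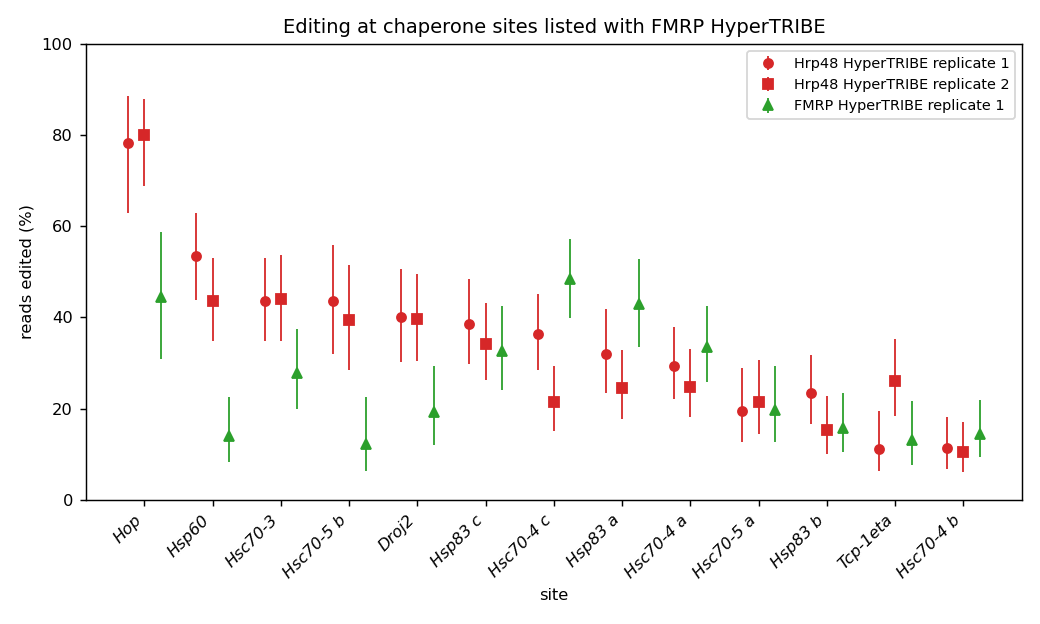
Percent of reads edited (y axis) at the 13 member sites listed with FMRP HyperTRIBE and in both Hrp48 HyperTRIBE libraries (x axis, letters number the sites of a gene in transcript direction). Points are libraries and bars are Wilson 95% intervals on the reads of that library. FMRP lies above both Hrp48 libraries at the 3 Hsc70-4 sites and at Hsp83 a, and far below them at Hsp60 (14% against 53.5% and 43.6%).

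Other chaperone genes outside the naming rule were taken from a list of 65 names, which holds some synonyms, and 37 of them had a listed site. Of these 28 had a reproducible HyperTRIBE site, 11 a TRIBE site, 7 an FMRP site and 2 a deaminase-alone site. Over all genes the shares were 62.2%, 25.1%, 38.7% and 5.54%, in the same order; this comparison has no test. Among the 22 members 11 had a TRIBE site. J-domain genes of the list (14 with a site, among them Csp, which encodes the synaptic vesicle protein cysteine string protein, with 21 and 17 HyperTRIBE sites) and cochaperones (10 with a site, among them CHIP, a ubiquitin ligase that binds Hsp70, with 4 and 4) mostly had reproducible sites, in 12 and 10 genes. All 5 endoplasmic reticulum genes with a site had a reproducible HyperTRIBE site, such as Cnx99A, which encodes calnexin (8 and 6), and none had a TRIBE or FMRP site. None of the 4 prefoldin genes had a reproducible one. The genes named are examples, taken with their values known. Hsf, the heat shock transcription factor, had 2 and 0 HyperTRIBE sites, and the heat shock RNA Hsromega had 2 and 1 and, with the deaminase alone, 0 and 1.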

How the data were processed

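Per the labels, poly(A) RNA of sorted S2 cells was made into Illumina libraries. The build is dm3, and Picard 2.8.2 and TopHat2 2.1.1 are named, per the submitters' processing notes, with no role stated. The authors deposited, for each site, whole-number read counts per base, edited and total reads, and the percent edited; the deposited score is 10 times the percent and was not used. A second deposited set of base counts, of unstated origin, served only to assign strand. For the thresholds behind the lists, only the lowest listed values are known. Positions, gene names and exon marks are those of the files.

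Groups came from the sample titles. A site was counted once per library and position, and once for each gene it is listed under. The members, gene lists and tests were chosen with earlier results of these data known. Genes named in full are those with a tested site or a deaminase-alone site, the 12 with most reproducible HyperTRIBE sites, the 6 with most FMRP sites, and the best known chaperones whatever their values; in practice all 22 are named. All 22 names matched a current symbol on their chromosome arm in the reference table. Numbers of sites were compared by exact permutation tests on log10 values (0.5 added against the deaminase alone). Editing was compared with limma 3.58.1 in R 4.3.3 on log2((edited + 0.5)/(unedited + 0.5)) over all sites listed in all 4 Hrp48 libraries, with Benjamini-Hochberg adjustment at 0.05. The limma step was tested on simulated reads. Tables were handled in Python 3.11.15 with numpy 2.4.6 and pandas 2.3.3, exact tests came from scipy 1.17.1, and plots from matplotlib 3.10.9. Alternatives were a read minimum of 50, an editing minimum of 20%, sites under 1 gene, leaving out Cct1 and Cct2, each replicate or the small heat shock genes, a pseudocount of 1, the replicate block, 1 TRIBE library sufficing, and Fisher's exact test on pooled reads.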

Additional observations from a re-analysis of the deposited data

How the results depend on the processing

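The direction of the site and gene folds was the same under every alternative run. Leaving out each replicate gave site folds of HyperTRIBE over TRIBE from 8.88 to 16.5, gene folds from 2.39 to 3.07, and site folds over the deaminase alone from 57.8 to 122; without deaminase-alone replicate 2, or without the small heat shock genes (an alternative chosen after seeing the data), the deaminase alone held no member site and no fold was computed. At 20% editing or more, 29 member sites were reproducible in place of 82. Of the 298 tested sites 83 were higher and 0 lower with limma, with 0 lower at an unadjusted p under 0.05 as well. The count was 31 higher among the 56 sites whose reads reached 50 in all 4 libraries, 215 higher and 1 lower with 1 TRIBE library sufficing (of 1395), and 127 higher and 1 lower when reads were pooled and compared by Fisher's exact test, in which the spread between libraries has no part. Without 1 replicate it ranged from 1 to 171 higher and from 0 to 9 lower, with the lone library of a group assumed to vary like the other group. Member sites called higher were 2 of 3, 4 of 11 with 1 TRIBE library sufficing, and 0 to 3 without 1 replicate. With the replicate block 83 sites, 2 of them members, were higher, and it changed no call of a member site. Same-numbered Hrp48 libraries carry the same library set in the file headers, but the deviations of same-numbered libraries had a correlation of -0.01 over the 298 sites. Within replicate numbers, as a form of pairing, the site fold was 9.38 and 15.6. Read number limits which sites are listed, and editing under 10% is not seen.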
